A study of Mus musculus with 2 samples.

Results

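Integrins are receptors on the cell surface, each made of 1 alpha and 1 beta subunit, and laminins are basement membrane proteins, each made of 1 alpha, 1 beta and 1 gamma chain. The genes of both families were picked by their symbols: Itga or Itgb followed by a digit, the letter-named leukocyte and vascular alpha subunits (Itgad, Itgae, Itgal, Itgam, Itgav and Itgax), and Lama, Lamb or Lamc followed by a digit. Of 20002 genes in the table, 39 had such a symbol. Of these, 3 encode cytoplasmic or nuclear proteins named for binding an integrin tail (Itgb1bp1, Itgb1bp2 and Itgb3bp) and were set apart, which left 36 subunits: 25 integrin subunits and 11 laminin chains.

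The data were RNA-seq of kidneys from C57BL/6J mice, with 1 library labelled Control and 1 labelled CKO. The labels call the second group a proximal tubule-specific conditional knockout of Reg-2 (Regnase-2, gene Zc3h12b). The methods describe instead AAV9 carrying shRNA against Regnase-2, injected at 11 weeks of age, so the group is a knockdown by a virus and no deletion of the gene is described. No promoter driving the shRNA is named, and restriction to proximal tubules is attributed to the preference of the serotype. The study reports a knockdown of the protein in proximal tubules by immunofluorescence, which the deposited values do not cover. The controls received AAV9 with a control shRNA according to the RNA-seq methods, and an empty vector according to the virus methods. The age at analysis is given as 14 weeks in the former and 16 weeks in the latter. The RNA came from whole kidneys according to the labels and from left kidney tissue according to the methods, and how many mice went into a library is not stated. The comparison asks which integrin and laminin genes differ in kidney after the knockdown, and whether subunits used by leukocytes differ from those used by epithelia.

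The table's name calls its values normalized counts, and all values below are those minus a floor, 34 for Control and 50 for CKO. They summed to 38851231 and 43588721, in that order. CKO values were multiplied by 0.667 before ratios were taken, and log2 ratios of CKO over Control carry a pseudocount of 1. Ratios are given with a 95% Clopper-Pearson interval that treats the values as reads and covers counting error only. With 1 library in each group, no difference has a replicate check, no test between the groups was made, and "higher" and "lower" describe these 2 libraries.

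Zc3h12b, the target gene, on the X chromosome, had a value of 47 in Control, against 59 in the second library. The log2 ratio of -0.25 (interval -0.83 to 0.33) turned to above 0 with equal totals (0.16). At these low values the target transcript gave no difference beyond counting error. The mRNA therefore does not check the labels, and the second library is called the library labelled CKO throughout.

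Integrins of the kidney hold tubules, podocytes and mesangial cells to their basement membranes, mainly through beta 1 dimers that bind laminin or collagen, and those of leukocytes carry cells from blood vessels into tissue. Dimers of Itgav with Itgb6 or Itgb8 on epithelia bind latent TGF-beta and release its active form. Laminin trimers give each basement membrane its identity: Lama5 with Lamb2 and Lamc1 in the glomerulus, and Lama3 with Lamb3 beneath stratified and transitional epithelia.

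Among the subunit lists, that of subunits used mainly by leukocytes had the highest median ratio. Not all its members led: Itgb4 (log2 ratio 1.99) and Itga2 (1.90) of the epithelial list lay above Itgal, Itgae and Itgb7. Of the 36 subunits, 14 differed upwards by 2-fold or more, with the library labelled CKO the higher one, against 13.4% of the 17469 genes with a scaled value of at least 10 in 1 library, and 0 were at least 2-fold lower, against 5.35%. The ratio was above 0 for 29 of the 36 (33 with equal totals) and for 51.5% of all genes. The median log2 ratio of the subunits was 0.69, and that of all genes was 0.022. Each of the 36 subunits reached the minimum of 10, but Itga11 did so only through its higher library. Without it, 13 of 35 were at least 2-fold higher. By family, 12 of 25 integrin subunits and 2 of 11 laminin chains passed 2-fold.

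**Figure D1:**
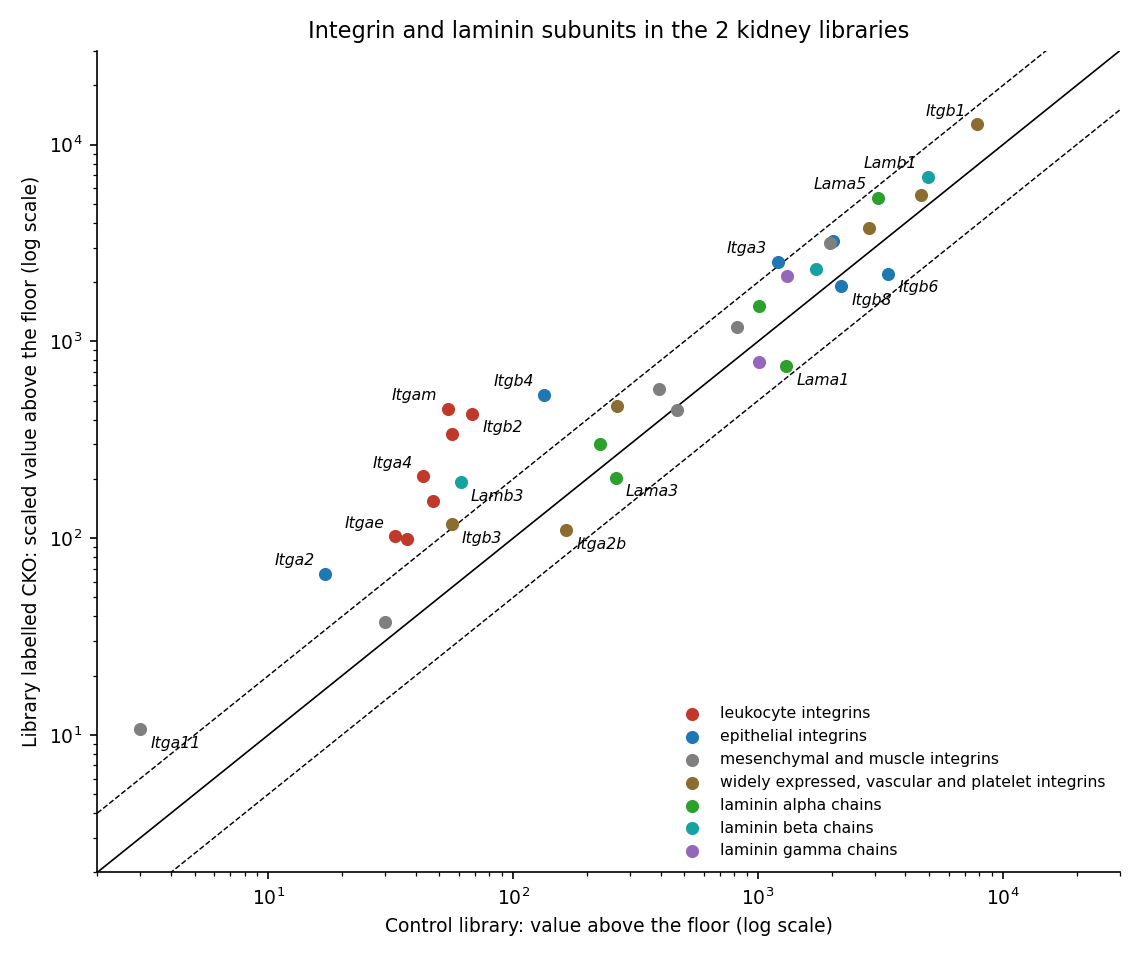
Values of 35 integrin and laminin subunits above the floor in the Control library (x axis) and, after scaling, in the library labelled CKO (y axis), both on log scales, with 1 point per gene coloured by list. The solid line marks equal values and the dashed lines 2-fold differences; 13 points lie above the upper dashed line, among them 7 of 7 leukocyte integrins, and 0 lie below the lower one.

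Itgam encodes the alpha subunit that pairs with Itgb2 on macrophages, monocytes and neutrophils as a receptor for complement fragments and Icam1. On chromosome 7 (chr7:128062640-128118491, GRCm38), it had a value of 54 in Control, against 682 in the library labelled CKO, for a log2 ratio of 3.05 (interval 2.67 to 3.50). This was the highest ratio of the 36 subunits and rank 164 of the 17469 genes. Itgb2, the beta subunit shared by the leukocyte alpha subunits of that group, had 68 and 644, a log2 ratio of 2.64 (2.30 to 3.04). Itgax, the alpha subunit of dendritic cells and some macrophages, had 56 and 507, a log2 ratio of 2.57 (2.19 to 3.02). The intervals of these 3 genes overlap, so their order is not resolved, and each was low in the Control library and several times higher in the other.

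Itgal, the alpha subunit that T cells use with Itgb2 to bind Icam1, had 47 and 232, a log2 ratio of 1.70 (interval 1.26 to 2.20). Its interval lay below that of Itgam. Among the 3 alpha partners of Itgb2 that were measured, Itgam made up 36.4% of the summed values per kb of exon in Control, against 49.1% in the library labelled CKO, Itgal 24.2% and 12.8%, and Itgax 39.4% and 38.2%. The Itgb2 partners were thus weighted further towards the myeloid subunit Itgam and away from Itgal, and these shares do not depend on the scaling between libraries.

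The remaining leukocyte subunits belong to the alpha 4 and beta 7 group. Itga4, which pairs with Itgb1 to bind Vcam1 or with Itgb7 to bind Madcam1, had 43 and 311, a log2 ratio of 2.24 (interval 1.81 to 2.76). Itgae, which pairs with Itgb7 on T cells lodged in epithelia and binds E-cadherin, had 33 and 154, a log2 ratio of 1.61 (1.09 to 2.23). Itgb7 had 37 and 149, a log2 ratio of 1.40 (0.90 to 1.99), the lowest of the list. All 3 lay above 0, and the lower end of the Itgb7 interval lay under the 2-fold line.

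Over the leukocyte list, 7 of 7 subunits were at least 2-fold higher (all genes 13.4%), with a median log2 ratio of 2.24. Itgad and Itgb2l, also on the list, were not analysed here. The summed value of the 7 was 338 in Control, against 2679 in the library labelled CKO. They made up 1.18% of the integrin values in the Control library (interval 1.05% to 1.31%) and 4.42% in the library labelled CKO (4.26% to 4.59%). In bulk tissue, more or fewer cells of a type and more or less RNA per cell cannot be told apart.

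Of the 36 subunits, 23 had an entry among the RefSeq promoters of GRCm38.p6, with 26 start sites. The 4 leukocyte subunits with an entry are printed because these subunits moved together, and Itgb6 as an epithelial subunit with a ratio below 0. Each run is the 250 bases before the start site, 5′ to 3′ on the strand of the gene. Capitals mark matches, on either strand, to the PU.1-type ETS core GAGGAA, the GC box GGGCGG and the AP-1 motif TGANTCA, none of which overlapped another here. The windows were chr7:128062390-128062639 for Itgam, chr7:128129300-128129549 for Itgax, chr2:79255176-79255425 for Itga4, chr15:102231936-102232185 for Itgb7 (minus strand) and, for the upstream one of its 2 start sites, chr2:60722604-60722853 for Itgb6 (minus strand).
Itgam: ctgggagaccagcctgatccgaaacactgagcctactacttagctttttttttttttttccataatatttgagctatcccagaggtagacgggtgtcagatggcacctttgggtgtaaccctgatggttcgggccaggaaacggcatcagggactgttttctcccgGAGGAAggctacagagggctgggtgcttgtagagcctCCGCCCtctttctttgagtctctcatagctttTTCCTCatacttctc
Itgax: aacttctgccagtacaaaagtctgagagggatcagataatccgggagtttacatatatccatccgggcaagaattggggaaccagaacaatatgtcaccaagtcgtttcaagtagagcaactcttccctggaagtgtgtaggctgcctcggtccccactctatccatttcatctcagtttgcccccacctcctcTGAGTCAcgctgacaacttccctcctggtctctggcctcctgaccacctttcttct
Itga4: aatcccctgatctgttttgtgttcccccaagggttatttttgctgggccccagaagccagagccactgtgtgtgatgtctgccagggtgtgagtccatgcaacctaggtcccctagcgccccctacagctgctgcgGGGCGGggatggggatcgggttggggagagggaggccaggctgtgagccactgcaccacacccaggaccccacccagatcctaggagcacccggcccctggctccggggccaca
Itgb7: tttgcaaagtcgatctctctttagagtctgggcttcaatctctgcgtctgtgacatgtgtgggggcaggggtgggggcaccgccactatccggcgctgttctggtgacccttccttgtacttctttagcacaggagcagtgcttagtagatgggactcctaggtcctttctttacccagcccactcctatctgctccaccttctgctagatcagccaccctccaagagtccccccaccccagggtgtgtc
Itgb6: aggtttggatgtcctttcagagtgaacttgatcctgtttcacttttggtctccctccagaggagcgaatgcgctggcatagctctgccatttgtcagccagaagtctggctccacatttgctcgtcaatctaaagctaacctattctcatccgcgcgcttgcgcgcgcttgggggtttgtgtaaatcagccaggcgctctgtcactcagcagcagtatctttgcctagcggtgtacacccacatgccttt
The Itgam window held 2 matches to GAGGAA, starting 84 and 15 bases before the start site, and 1 GC box. Itgax held 1 match to TGANTCA, Itga4 held 1 GC box, and Itgb7 and this Itgb6 window held no match to the 3 motifs. The window of the other Itgb6 start site (chr2:60673694-60673943), not printed, held 1 match to GAGGAA, starting 35 bases before that site. GAGGAA was present in 1 of 4 leukocyte windows, in 13 of the 26 subunit windows used and in 23.3% of 32851 promoter windows of the same length. The GC box was present in 9 of 26 and in 32.7% of all promoters, and TGANTCA in 1 of 26 and in 6.75%. A match describes the letters only. Itgam and Itgax are also neighbours, with 11.1 kb between the annotated genes.

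Macrophage markers moved with the leukocyte subunits, and so did 4 of the T cell markers that reached the minimum in both libraries. Trac, a T cell marker that also reached it in both, did not (log2 ratio -0.44). Of 12 macrophage markers, 11 were at least 2-fold higher, against 13.4% of all genes (median log2 ratio 2.64). Their summed value was 6765 in Control, against 52791 in the library labelled CKO. Cd74, the invariant chain of MHC class II and the most abundant of them per length in both libraries, had 2610 and 23956 (log2 ratio 2.61). The highest ratio was that of Lyz2, the macrophage lysozyme (518 and 9836, 3.66), and the lowest that of Csf1r, the receptor for colony stimulating factor 1 (2244 and 4803, 0.51). None of the 12 was at or below 3 in either library, and macrophage transcripts were thus well measured in both.

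T cell and neutrophil transcripts were scarcer. Of 8 T cell markers measured of 10 listed, 7 were at least 2-fold higher, against 13.4% of all genes (median 1.80). The summed value of the 8 was 185 in Control, against 616 in the library labelled CKO. Of the 7, 3 (Cd5, Cd8a and Cd3e) reached the minimum of 10 only through the library labelled CKO, and 4 did so in both. The first 3 are therefore not support for a difference. Cd5, a T cell surface protein, was the highest and had 3 and 38 (log2 ratio 2.72, interval 1.42 to 5.42). Trac, the constant region of the T cell receptor alpha chain and the most abundant per length, was the lowest, at 99 and 109 (-0.44, and above 0 with the values as deposited). Of 10 neutrophil markers, 3 were measured, with a sum of 36 and 90. S100a9, a calcium-binding protein and the most abundant of these per length, had 13 and 64 (1.64). Ltf, lactoferrin, had 16 and 7 (-1.59, but above 0 in the values as deposited). Thus 1 was 2-fold higher (all genes 13.4%) and 1 lower (all genes 5.35%), the latter past the minimum only through the Control library. The only B cell marker measured, Cd79b, had 23 and 40 (0.21). The part that the number of macrophages or T cells had in the leukocyte integrin ratios was not tested.

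Adaptors that work on leukocyte integrins from inside the cell were also higher. Of 12 listed, 8 were at least 2-fold higher, against 13.4% of all genes, and the median log2 ratio was 1.95. Fgr, a Src family kinase of myeloid cells, was the highest at 26 and 248 (log2 ratio 2.62, interval 2.08 to 3.31). Skap2, an adaptor that is also made outside blood cells, was the lowest at 1213 and 2347 (0.37) and the most abundant per length in the Control library. Coro1a, an actin regulator of leukocytes, was the most abundant per length in the library labelled CKO, with 172 and 1324 (2.35).

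The adaptors that link integrins to actin in adherent cells gave another picture. Of 20 focal adhesion genes, 1 was at least 2-fold higher, against 13.4% of all genes, and their median log2 ratio of 0.036 was close to that of all genes. The one was Actn1, the actin crosslinker alpha-actinin 1, with 774 and 3775 (log2 ratio 1.70). Tln2, a talin, was the lowest with 11136 and 12132 (-0.46, and above 0 with the values as deposited). Tns1, a tensin and the most abundant per length, had 46497 and 55932 (-0.32, and above 0 with equal totals or with the values as deposited).

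Among the ligands of leukocyte integrins, the receptors' partners on the vessel wall and epithelium, 4 of 8 that reached the minimum were at least 2-fold higher (median 0.74, all genes 13.4%). Vcam1, the partner of Itga4 with Itgb1, had 306 in Control, against 6520 in the library labelled CKO, for a log2 ratio of 3.82 (lower end of the interval 3.66). Icam1, the partner of the Itgb2 dimers, had 491 and 2599 (1.82, 1.68 to 1.96), and Icam2, a ligand made by endothelium at rest, was the lowest at 251 and 347 (-0.12, and above 0 with equal totals). Receptor and ligand genes were thus both higher for Itga4 with Vcam1 and for the Itgb2 dimers with Icam1.

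The most abundant ligands per length had smaller ratios. F11r, a junctional adhesion molecule bound by Itgal, led in the Control library, with 2475 and 4691 (log2 ratio 0.34). Cdh1, which encodes E-cadherin, the ligand of Itgae with Itgb7, led in the library labelled CKO, with 4155 and 8526 (0.45). Madcam1, the mucosal ligand of Itga4 with Itgb7, was near the floor, with 2 and 13 (1.69, interval -0.028 to 5.31), and did not reach the minimum. Icam4 was not analysed here.

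**Figure D2:**
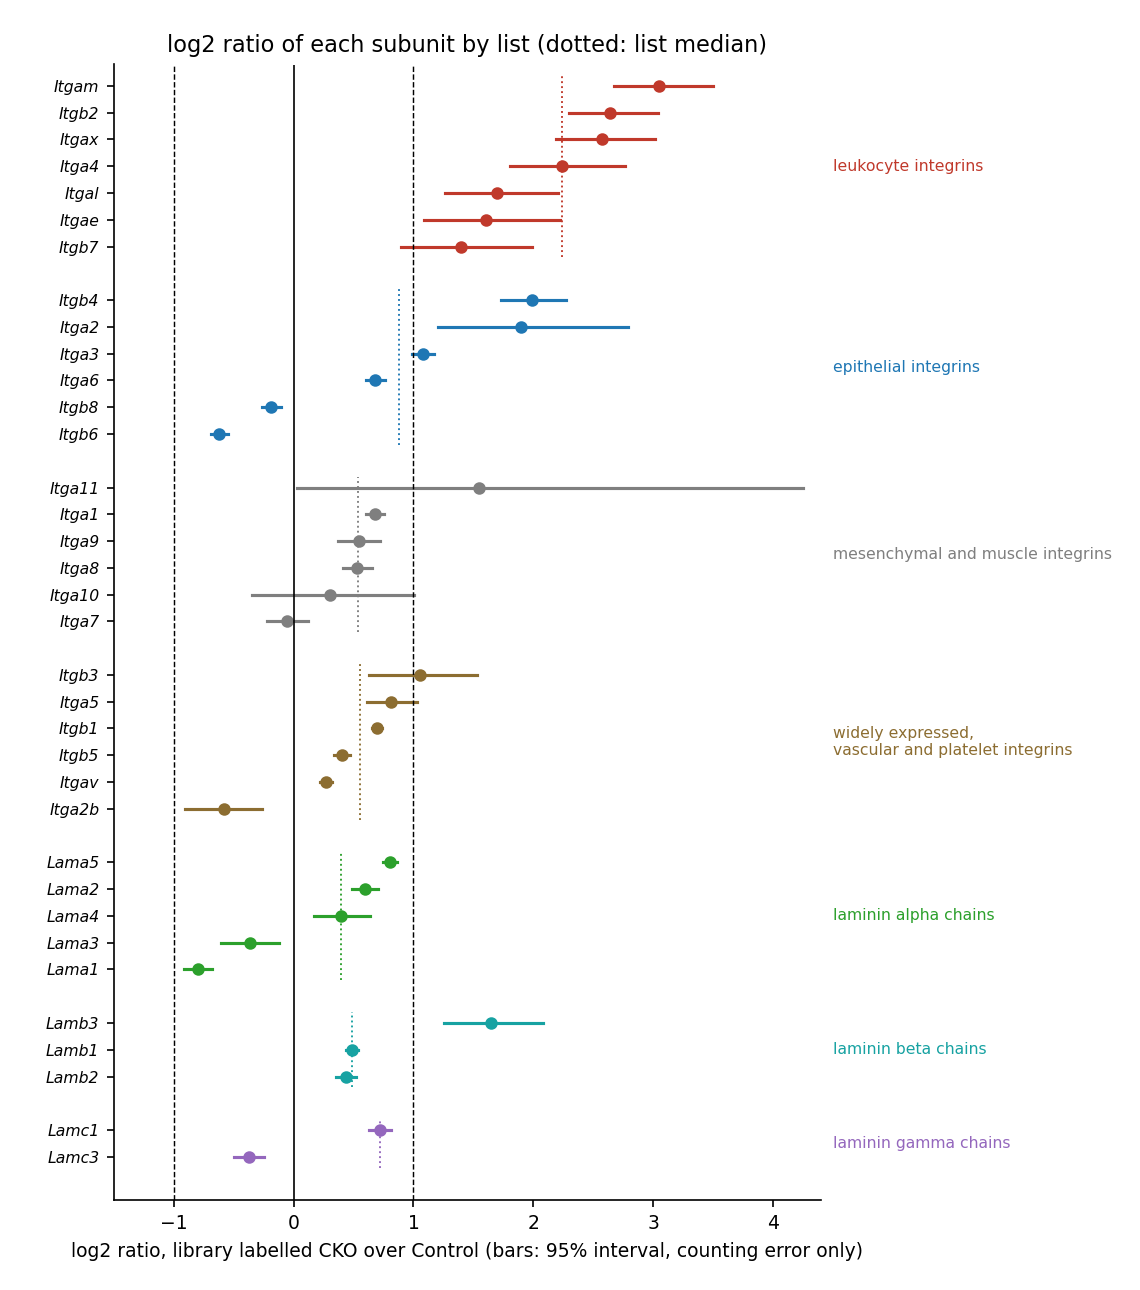
The log2 ratio of the library labelled CKO over Control for 35 subunits (points), with the 95% interval for counting error (bars), by list and in order of the ratio. Dotted lines mark list medians, which run from 0.40 for the laminin alpha chains to 2.24 for the leukocyte integrins, and dashed lines mark 2-fold; with equal totals Itga7, Itgb8, Lama3 and Lamc3 move above 0.

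The epithelial subunits were spread from -0.62 to 1.99 on the log2 scale. Of 6, 3 were at least 2-fold higher (all genes 13.4%), and 4 were with equal totals, where the count of all genes rose too. Below 0 were 2 (1 with equal totals). The median log2 ratio was 0.88, which is 1.36 below that of the leukocyte list. Itgb4, which pairs with Itga6 in the hemidesmosomes of stratified and transitional epithelia, had 134 in Control, against 804 in the library labelled CKO, for a log2 ratio of 1.99 (interval 1.73 to 2.27). Its partner Itga6, which also pairs with Itgb1, had 2028 and 4883, a log2 ratio of 0.68 (0.61 to 0.76). The intervals of the 2 partners did not overlap, and Itgb4 had the higher ratio and the lower level. Per kb of exon, Itgb4 stood at 19.1 and 76.4 (scaled) and Itga6 at 225 and 361.

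Itga2, the alpha subunit of a collagen receptor with Itgb1, had 17 and 99, a log2 ratio of 1.90 (interval 1.21 to 2.79). Itga3, the alpha subunit of the laminin receptor that podocytes and tubules use with Itgb1, had 1203 and 3809, a log2 ratio of 1.08 (0.98 to 1.17), so that its interval reached just under 2-fold. Itga3 was the most abundant epithelial subunit per length in the library labelled CKO, at 445 per kb of exon against 211 in the Control library. In that library Itgb6 had been the most abundant.

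The TGF-beta activating subunits had the lowest ratios of the list. Itgb6 (chr2:60598292-60722643), made by kidney tubules, had 3401 in Control, against 3316 in the library labelled CKO, which after scaling is a log2 ratio of -0.62 (interval -0.69 to -0.55). Itgb8 had 2176 and 2868, a log2 ratio of -0.19 (-0.27 to -0.11), which was above 0 with equal totals (0.23) or with values left as deposited (0.40). Their shared partner Itgav had 4612 and 8350, a log2 ratio of 0.27 (0.22 to 0.32). The Itgb6 ratio stayed below 0 but shrank to -0.20 with equal totals and to -0.029 in the values as deposited, Itgav was higher in every setting tried, and the sign for Itgb8 turned with the scaling.

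Within the beta subunits, Itgb6 made up 13.8% of the summed values per kb in Control, against 6.32% in the library labelled CKO. As a share of values not divided by length, it was 20.6% (interval 19.9% to 21.2%) and 10.2% (9.84% to 10.5%). In order of level per kb, Itgb6 was rank 4 of the 36 subunits in the Control library (478) and rank 9 in the library labelled CKO (311). Summed over the 6 epithelial subunits, the values were 8959 and 15779, a log2 ratio of 0.23. This is below the list's median because Itgb6 and Itgb8 make up much of the sum and Itgb4 and Itga2 little of it.

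Among the matrix ligands of integrins, 8 of 14 measured were at least 2-fold higher, against 13.4% of all genes (median log2 ratio 1.79). The highest and most abundant per length was Spp1, which encodes osteopontin, a ligand of Itgav, Itga4 and Itga9 dimers, with 15360 in Control, against 412220 in the library labelled CKO (log2 ratio 4.16). The lowest was Vtn, vitronectin, a ligand of Itgav with Itgb3 or Itgb5, with 13 and 19 (-0.035, and above 0 with equal totals). Fn1, the fibronectin bound by Itga5 with Itgb1, had 1809 and 9790 (1.85).

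The TGF-beta genes were part of that list. Tgfb1, whose latent protein is bound by Itgav with Itgb6 or Itgb8, had 288 and 856 (log2 ratio 0.98, interval 0.79 to 1.18). Tgfb3, bound in the same manner, had 59 and 171 (0.94, 0.52 to 1.40). Tgfb2, whose latent protein lacks the motif these dimers recognise, had 70 and 403 (1.93, 1.57 to 2.33) and was the only one of the 3 past 2-fold. Of the integrin subunits outside the leukocyte list, 5 of 18 were at least 2-fold higher (all genes 13.4%), with a median of 0.61. Fgb was not analysed here.

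Of the subunits of mesenchyme and muscle, 1 of 6 was at least 2-fold higher, against 13.4% of all genes (2 of 6 with equal totals), with a median log2 ratio of 0.54. This was Itga11, a collagen receptor subunit of fibroblasts, which had 3 and 16 (log2 ratio 1.54, interval 0.025 to 4.25, and 0.67 with a pseudocount of 10) and was the least abundant of the 36 per length. Itga1, a collagen receptor subunit of mesangial and smooth muscle cells, had 1965 and 4719 (0.68, 0.60 to 0.76) and was the most abundant of the list per length in the library labelled CKO. Itga8, the mesangial receptor for nephronectin that is needed for kidney formation, was the most abundant per length in the Control library, with 819 and 1775 (0.53, 0.41 to 0.65). Its Control level was close to that of Itga1 (111 and 106 per kb, without an interval). Not divided by length, Itga1 had the larger value in both libraries.

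The rest of this list had no ratio past 2-fold. Itga9, a receptor subunit for tenascin and osteopontin, had a log2 ratio of 0.54, and Itga10, a collagen receptor subunit of cartilage, had 0.31. Itga7, the laminin receptor subunit of muscle, was the lowest with 467 and 675 (-0.053, interval -0.23 to 0.12), a difference that was not detectable at this depth and whose sign turned with equal totals. Of 9 fibroblast and mesangial markers, 6 were at least 2-fold higher, against 13.4% of all genes (median 1.69), with a sum of 9167 and 36107. The highest was Col1a1, a chain of fibrillar collagen (288 and 2711, log2 ratio 2.65), and the lowest and most abundant per length was Ren1, renin (2387 and 2879, -0.31, and above 0 with equal totals).

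Of 6 smooth muscle markers, 2 were at least 2-fold higher, against 13.4% of all genes (median 0.71), with a sum of 4475 and 12627. Tagln, transgelin, was the highest and the most abundant per length in the library labelled CKO (398 and 3087, log2 ratio 2.37), Smtn, smoothelin, was the most abundant in the Control library (2476 and 5198, 0.48), and Myh11, smooth muscle myosin, was the lowest (612 and 934, 0.025). The part of fibroblast and muscle cells in the ratios of the mesenchymal subunits was not tested.

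The widely used, vascular and platelet subunits had a median log2 ratio of 0.55, with 1 of 6 at least 2-fold higher, against 13.4% of all genes (3 of 6 with equal totals). Itgb1, the common beta subunit of the laminin, collagen and fibronectin receptors, had 7835 in Control, against 19029 in the library labelled CKO, for a log2 ratio of 0.70 (interval 0.66 to 0.73). Per kb of exon it was the most abundant of the 36 subunits in both libraries, at 1920 and 3109 (scaled). Its share of the beta subunits per kb was 55.5% and 63.1%, so Itgb1 took a larger part of the beta subunit transcripts in the library labelled CKO.

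Itgb3, which pairs with Itgav on vessels and with Itga2b on platelets, had 56 and 176, a log2 ratio of 1.05 (interval 0.63 to 1.53), and was the 1 of this list past 2-fold, which it missed with a pseudocount of 10. Itga5, the fibronectin receptor subunit, had 265 and 701 (0.82, 0.61 to 1.03), and Itgb5, a partner of Itgav, had 2838 and 5636 (0.40, 0.34 to 0.47). Itga2b, the platelet fibrinogen receptor subunit, was the lowest, with 165 in both libraries and a log2 ratio of -0.58 after scaling (-0.91 to -0.26), and it was above 0 with the values as deposited (0.11). The intervals of the partners Itgb3 and Itga2b did not overlap.

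Platelet transcripts were near the floor. Of 8 platelet and megakaryocyte markers, 4 were measured, with a sum of 34 in Control, against 59 in the library labelled CKO. The most abundant was Pf4, platelet factor 4, with 15 and 40 (log2 ratio 0.79, interval -0.058 to 1.79), and it alone reached the minimum. Gp6, a collagen receptor of platelets, had 6 and 3. The part of platelets in the Itga2b value was not tested.

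**Figure D3:**
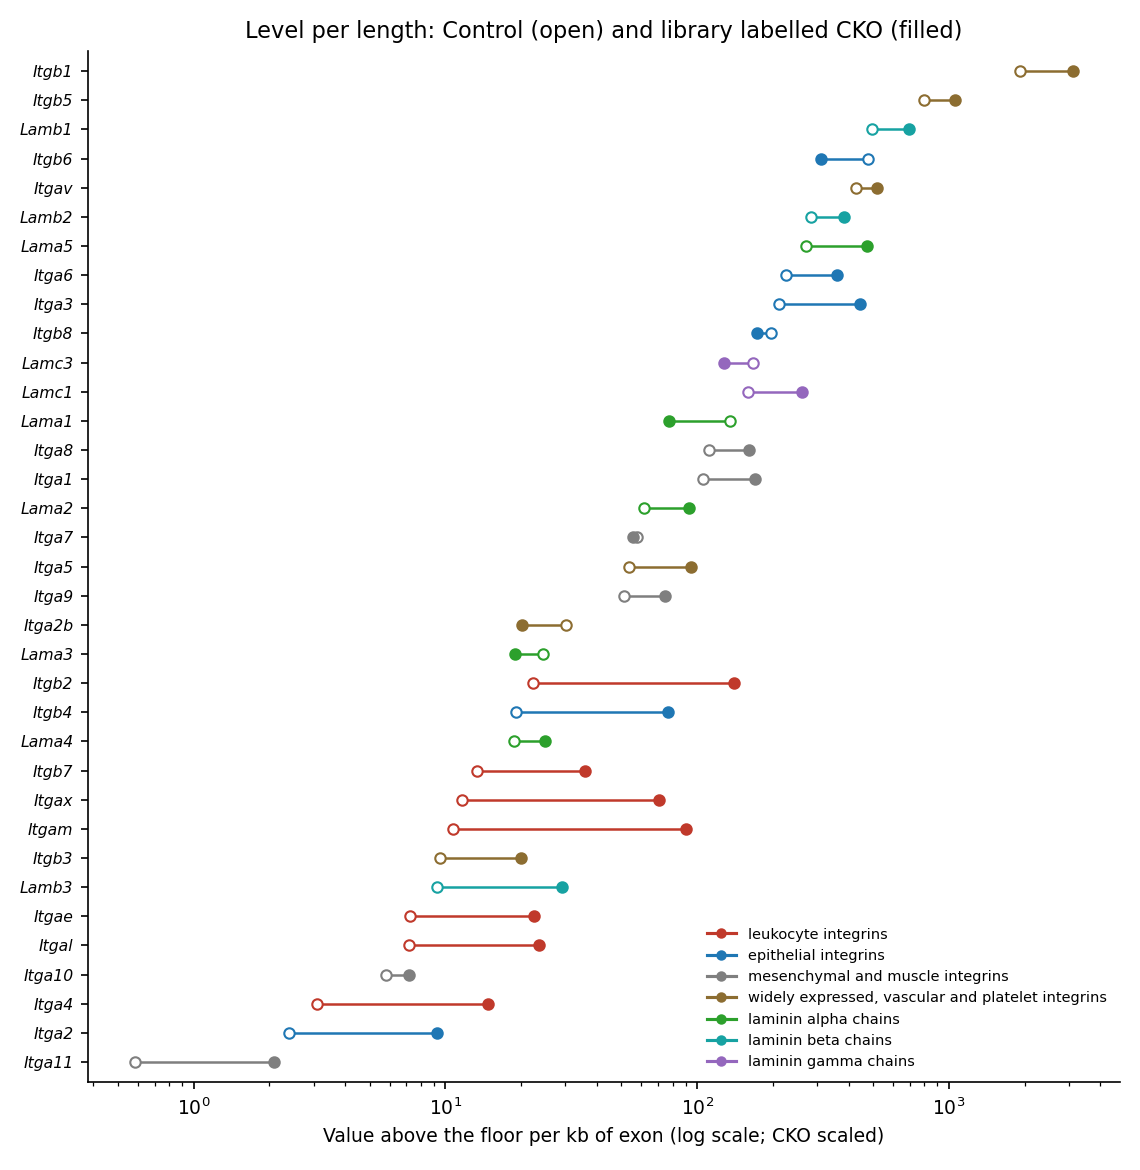
Level of 35 subunits, as the value above the floor per kb of merged exons on a log scale, in the Control library (open circles) and, scaled, in the library labelled CKO (filled circles), in order of the Control level and coloured by list. Itgb1 is highest in both libraries, the leukocyte subunits start between 3.08 (Itga4) and 22.3 (Itgb2), and Itgb6 and Lama1 are lower in the library labelled CKO.

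Levels per kb of exon place these ratios on a scale. In the Control library the order ran from Itgb1 (1920) through Itgb5 (799) and Lamb1 (496) to Itga2 (2.38) and Itga11 (0.585). Itgb2 was rank 23 at 22.3 per kb in the Control library and rank 15 at 141 in the library labelled CKO, and Itgam was rank 28 at 10.7 and rank 19 at 90.5. Even after the difference, Itgb2 stood well below Itgb1 per kb in the library labelled CKO, so the leukocyte subunits remained a small part of the integrin transcripts of the tissue.

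Of the laminin chains, 2 of 11 were at least 2-fold higher (all genes 13.4%), 0 were 2-fold lower, and the median log2 ratio was 0.48. The count of higher chains depended on the scaling. With equal totals 2 of 5 alpha chains passed 2-fold, against 0 in the scaling used, and the count of all genes rose too. Lamb3 (chr1), a beta chain laid down with Lama3 beneath stratified and transitional epithelia, had 61 in Control, against 289 in the library labelled CKO, for a log2 ratio of 1.64 (interval 1.26 to 2.08). Lama3 had 262 and 305, a log2 ratio of -0.36 (-0.61 to -0.12), which was above 0 with equal totals (0.053) or with values left as deposited (0.26).

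The 2 chains did not differ alike, and their intervals did not overlap. Per kb of exon the Control levels were 9.23 for Lamb3 and 24.4 for Lama3, and the scaled levels in the library labelled CKO were 29.1 and 18.9. Per kb, Lamb3 was thus the less abundant of the 2 in the Control library and the more abundant in the other. In values not divided by length, Lamb3 was the lower in both (61 and 289, against 262 and 305 for Lama3). The receptor for laminins with these chains, Itga6 with Itgb4, had its Itgb4 subunit at a log2 ratio of 1.99, with an interval that overlapped that of Lamb3.

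Hemidesmosome subunits and Lamb3 are made by urothelium, among other epithelia. Of 8 urothelium markers, 7 were measured and 5 were at least 2-fold higher, against 13.4% of all genes (median log2 ratio 1.78). The sum of the 7 was 120 in Control, against 504 in the library labelled CKO. Upk3a, a uroplakin, was the highest and the most abundant per length in the library labelled CKO, with 9 and 80 (2.44). Upk1a, another uroplakin, was the most abundant in the Control library with 25 and 71 (0.89), and Trp63, a transcription factor of basal cells, was the lowest with 40 and 81 (0.42). Of the 5, 4 (Upk3a, Upk1b, Krt5 and Upk2) reached the minimum of 10 only through the library labelled CKO, so the count is not support for a difference. No urothelium marker was at or below 3 in either library, and the part of urothelium in the ratios of Itgb4 and Lamb3 was not tested.

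The alpha chains changed in their make-up. Lama1, the alpha chain of the earliest kidney basement membranes and of some adult tubules, had 1305 in Control, against 1126 in the library labelled CKO, for a log2 ratio of -0.80 (interval -0.91 to -0.68), the lowest of the 36 subunits, which shrank to -0.38 with equal totals and -0.19 in the values as deposited. Lama5, the main alpha chain of mature glomerular and tubular basement membranes, had 3078 and 8065, a log2 ratio of 0.80 (0.74 to 0.87). The 2 chains thus stood on opposite sides of 0 in every setting tried.

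Per kb of exon, Lama1 made up 26.4% of the alpha chains in Control, against 11.3% in the library labelled CKO, and Lama5 made up 53.0% and 68.8%. As a share of values not divided by length, Lama1 was 22.2% (interval 21.1% to 23.3%) and 9.21% (8.70% to 9.74%), and Lama5 was 52.3% (51.1% to 53.6%) and 66.0% (65.1% to 66.8%). The intervals of the libraries do not overlap for either chain. Lama2, the chain of muscle and mesangial matrix, had 1009 and 2282 (log2 ratio 0.59, 0.48 to 0.70), and Lama4, the chain of vessel walls, had 227 and 449 (0.40, 0.17 to 0.64).

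The gamma chains differed among themselves too. Lamc1, the gamma chain of most laminins, had 1313 and 3243, a log2 ratio of 0.72 (interval 0.63 to 0.81). Lamc3 had 1012 and 1172, a log2 ratio of -0.37 (-0.50 to -0.25), which was above 0 with equal totals and, at 0.22, with values left as deposited. Per kb of exon, Lamc1 stood at 159 in Control and 261 (scaled) in the library labelled CKO, and Lamc3 at 166 and 128. The intervals of the 2 ratios did not overlap. Per kb, Lamc1 was the more abundant of the 2 in the library labelled CKO. The 2 Control levels per kb were close and carry no interval, so their order is not resolved. In values not divided by length, Lamc1 was the higher in both libraries. In Control it made up 46.1% of the gamma chain values (interval 44.2% to 47.9%), against 35.5% (33.8% to 37.3%) for Lamc3.

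**Figure D4:**
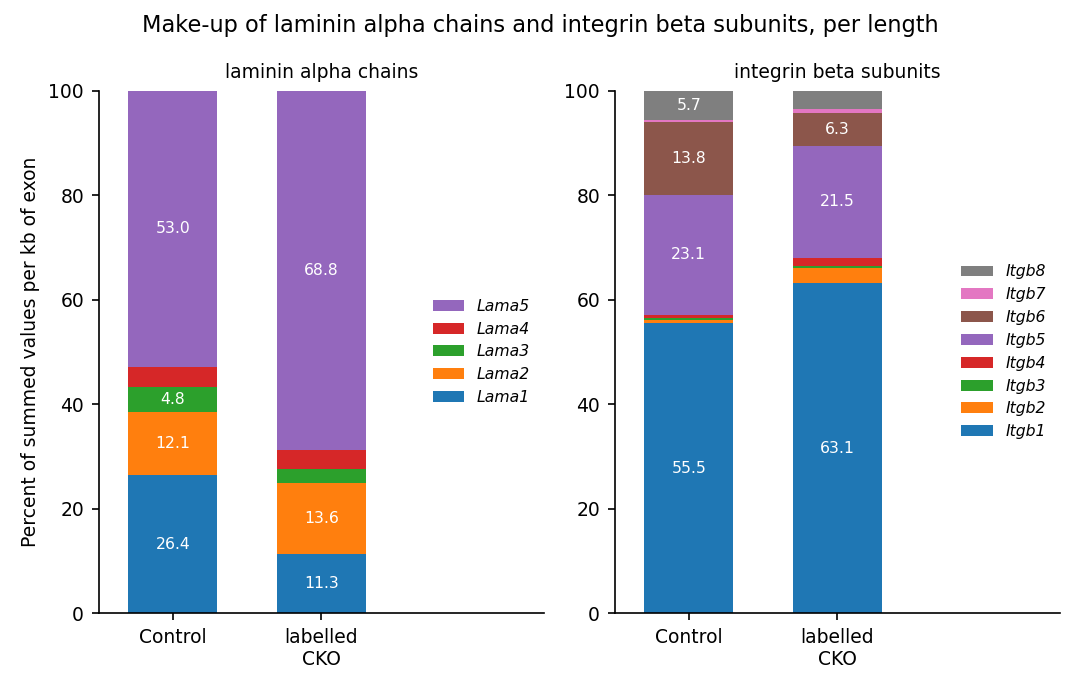
Make-up of the laminin alpha chains and the integrin beta subunits in each library, as the percent of the summed values per kb of exon (stacked bars, 1 bar per library, which do not depend on the scaling). Lama1 goes from 26.4% in the Control library to 11.3% in the library labelled CKO, and Itgb6 from 13.8% to 6.32%.

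The beta chains kept their proportions apart from Lamb3. Lamb1, the beta chain of tubular basement membranes, was the most abundant laminin chain per kb in both libraries, with 4922 and 10324 and a log2 ratio of 0.48 (interval 0.43 to 0.53). Lamb2, the beta chain of the glomerular basement membrane, had 1725 and 3508 and a log2 ratio of 0.44 (0.36 to 0.52). Lamb1 was 73.4% of the beta chain values in the Control library (72.3% to 74.4%) and 73.1% in the library labelled CKO (72.4% to 73.8%), a difference within the intervals.

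Of the other basement membrane genes, 3 of 13 were at least 2-fold higher, against 13.4% of all genes (7 of 13 with equal totals, where the count of all genes rose too), and the median log2 ratio was 0.72. Col15a1, a collagen of the outer side of basement membranes, was the highest with 465 and 2571 (log2 ratio 1.88). Col4a1, a chain of the collagen found in every basement membrane and the most abundant per length, had 8588 and 21250 (0.72, interval 0.69 to 0.76). Col4a3, a chain of the mature glomerular and distal tubular network, was the lowest with 9313 and 7700 (-0.86, -0.90 to -0.82). Col4a4, its partner in that network, had 11700 and 9847 (-0.83). Col4a5, the remaining chain of the network, had 1524 and 2658 (0.22, 0.13 to 0.31), so 2 of the 3 chains were lower and 1 was higher.

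The receptors for laminin outside the integrin family had a median log2 ratio of 0.39, and 2 of 6 were at least 2-fold higher (all genes 13.4%). Bcam, which binds Lama5, was the highest with 3398 and 12223 (log2 ratio 1.26), above the 0.80 of Lama5 itself. Rpsa, a ribosomal protein also described as a laminin receptor, was the most abundant per length and the lowest, with 23099 and 33247 (-0.060, and above 0 with equal totals).

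**Figure D5:**
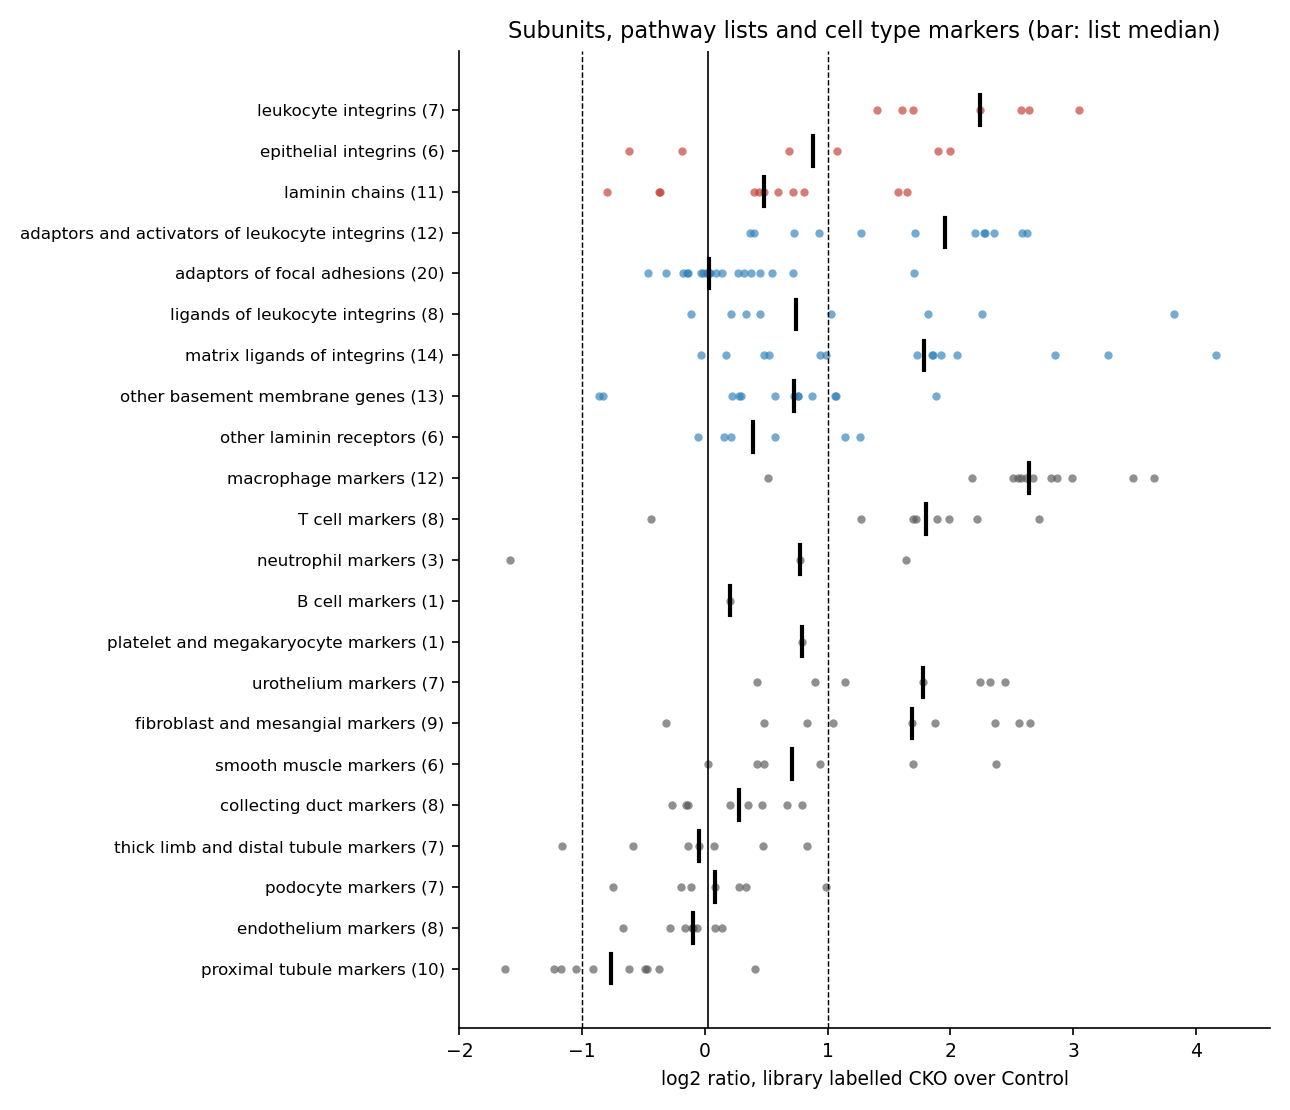
The log2 ratio of the library labelled CKO over Control for the genes of each list that reached the minimum (points; the number of genes is in brackets): subunits in red, pathway lists in blue and cell type markers in grey, with list medians as bars, the median of all genes (0.022) as a solid line and 2-fold as dashed lines. The medians run from -0.76 for proximal tubule markers to 2.64 for macrophage markers, with the leukocyte integrins at 2.24; with equal totals the thick limb and endothelium medians move above 0.

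Markers of the kidney's own cells, which make most epithelial subunits and laminins, were mixed. Of 10 proximal tubule markers, 4 were lower by 2-fold or more (1 with equal totals), against 5.35% of all genes, and 0 higher by as much (median log2 ratio -0.76), with a sum of 638637 in Control, against 502241 in the library labelled CKO. Slc27a2, a fatty acid transporter and the most abundant per length, had 157696 and 100638 (-1.23). Slc22a6, an organic anion transporter, was the lowest with 50329 and 24475 (-1.63), and Slc5a12, a lactate transporter, was the highest with 25259 and 50338 (0.41).

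The segments further along the nephron were nearer to 0. Thick limb and distal tubule markers had a median of -0.044 over 7 genes (0.37 with equal totals), with a sum of 146864 and 264948; Umod, uromodulin, was the most abundant (90047 and 187056, log2 ratio 0.47), Cldn16, a tight junction protein, the highest (0.83) and Pvalb, parvalbumin, the lowest (-1.17). Collecting duct markers had a median of 0.28 over 8 genes and a sum of 18224 and 35495, from Slc4a1, an anion exchanger (-0.27, and above 0 with equal totals), to the water channel Aqp2, the highest and most abundant (4762 and 12359, 0.79). Neither list had a gene 2-fold higher (all genes 13.4%), and Pvalb alone was 2-fold lower (all genes 5.35%). With equal totals, where the count of higher genes over all genes rose too, 1 thick limb and distal tubule gene and 2 collecting duct genes were 2-fold higher, and 0 were 2-fold lower.

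Of 7 podocyte markers 0 passed 2-fold either way (1 higher with equal totals), and they had a median of 0.083 and a sum of 9362 and 14385. Podxl, podocalyxin, was the most abundant (4782 and 7595, log2 ratio 0.083) and Cdkn1c, a cell cycle inhibitor, the highest (0.99). Of 8 endothelial markers 0 did so, with a median of -0.099 (0.32 with equal totals) and a sum of 14981 and 20235, with Plvap, a protein of fenestral diaphragms, the most abundant (3854 and 5411, -0.095, and above 0 with equal totals), Emcn, endomucin, the highest (0.14) and Kdr, a receptor for VEGF, the lowest (-0.67). The part of the lower proximal tubule transcripts in the values of Itgb6, Lama1 and Lamc3 was not tested.

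The 3 genes set apart at the start lay near 0. Itgb1bp1, which binds the tail of Itgb1, had 503 and 818 (log2 ratio 0.12, interval -0.045 to 0.28), Itgb1bp2, a muscle protein, had 10 and 17 (0.17, -1.03 to 1.47), and Itgb3bp, a centromere protein, had 355 and 494 (-0.11, -0.31 to 0.093, and above 0 with equal totals). None of the 3 differed beyond its counting interval.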

How the data were processed

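Kidney RNA of 1 Control and 1 CKO library was sequenced with a stranded poly(A) kit. The authors' methods name STAR 2.7.3a, HTSeq, DESeq2 and FPKM from Cufflinks 2.2.1, and the submitters' processing notes add edgeR and mm10. The deposited table is called normalized counts in its name, and DESeq2 is the normalization the methods name, but its columns are not on a common scale. Its whole numbers were treated as a score, a deposited value with no standard unit, whose lowest values were 35 and 51. The column minimum minus 1 was subtracted as a floor; that the remainder behaves as reads is an inference. CKO values were scaled by 0.667, each gene's Control value divided by its CKO value and the median taken. Of 20002 genes, 17469 had a scaled value of at least 10 in 1 library. Medians per gene were 284 and 513.5.

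Members and lists were chosen with earlier results of these data known. Genes were named by rule, with some left out: each subunit past 2-fold, the highest, lowest and most abundant of each list, subunits of named dimers and trimers, and list members at or below 3. Other genes (Icam1, Fn1, Tgfb1 to Tgfb3, Madcam1, Col4a4, Col4a5, the low T cell and urothelium markers and the 3 binding proteins) were chosen after their values were seen. Levels per kb used merged exons of GENCODE M21 (GRCm38), which gave a length for 36 of 36 subunits. Shares carry Clopper-Pearson intervals. Motifs were searched on both strands of RefSeq promoters.

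Alternatives were pseudocounts of 0.1 and 10, no filter or a minimum of 50, thresholds of 1.5-fold and 4-fold, equal totals, equal upper quartiles, a scaling that puts the median log2 ratio at 0, and values as deposited. A floor at the column minimum and a count without Itga11 were chosen after seeing the data. The steps were tested on simulated data, drawn as reads above known floors. Because the data were drawn so, that test cannot check whether the deposited values above the floor behave as reads. Python 3.11.15, numpy 2.4.6, pandas 2.3.3, scipy 1.17.1 and matplotlib 3.10.9 were used.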

Additional observations from a re-analysis of the deposited data

How the results depend on the processing

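Both pseudocounts, no filter or a minimum of 50, equal upper quartiles, a scaling with the median log2 ratio at 0 and, chosen after seeing the data, a floor at the column minimum left the medians of the leukocyte, epithelial and laminin lists within their counting intervals and the sign of every subunit they kept as it was. The 14 subunits at least 2-fold higher were 12 with a pseudocount of 10, where Itga11 and Itgb3 fell short, and 13 with a minimum of 50 or a floor at the column minimum. With equal totals the median of all genes moved to 0.44, and the epithelial median to 1.30 and the laminin median to 0.90. Relative to all genes these are close to the values reported. Equal totals gave 21 subunits at least 2-fold higher and, over all genes, 3870 higher and 437 lower, so that 89.9% of differing genes were higher, against 71.4% in the scaling used; Itga7, Itgb8, Lama3 and Lamc3 turned to above 0. With the values as deposited the median of all genes was 0.59, the epithelial median 1.39, the laminin median 1.07, the difference of leukocyte and epithelial medians 0.82, and 24 subunits were 2-fold higher (all genes 3574 higher and 131 lower, 96.5% higher); Itga2b turned too, and Ltf went to 0.19. The cause was not tested. At 1.5-fold 2 subunits were lower, Lama1 and Itgb6, and at 4-fold 4 were higher. Of 36 subunit ratios, 25 left their counting interval with equal totals and 24 in the deposited values. The platelet median, from 1 gene, went to -0.25 over 4 genes with no filter. No paired analysis was possible because Control and CKO are 1 library apiece. Depth limits Itga11, Itga10, Itgb1bp2 and the T cell, neutrophil and platelet markers, whose intervals are wide.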

Other observations

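Itgbl1, which encodes a secreted protein with the cysteine-rich repeats of integrin beta subunits and falls outside the symbol rule, had a value of 16 in Control, against 110 in the library labelled CKO, for a log2 ratio of 2.13 (95% interval 1.43 to 3.05 for counting error). Among the integrin genes this would stand below Itga4 and above Itgb4. It was named after its value was seen.

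Itga1 and Itga2, both alpha subunits of collagen receptors with Itgb1, are neighbours on chromosome 13 with 21.0 kb between the annotated genes. Their log2 ratios were 0.68 and 1.90, with intervals that did not overlap. Tnc, the matrix protein tenascin C and a ligand of Itga9, had 63 and 933 (3.28, interval 2.93 to 3.70), while Itga9 itself had 394 and 861 (0.54). Npnt, nephronectin, the ligand of Itga8, had 4123 and 8637 (0.48, interval 0.43 to 0.54), close to the 0.53 of Itga8. These pairs were chosen after their values were seen.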
